A study of Mus musculus with 9 samples.

Results

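The genes that copy DNA and carry a cell through mitosis were followed in mouse spinal cord, 40 in all, chosen by symbol from the 40879 gene symbols of the deposited count table. All 40 were found. They fall into 5 roles, with 11 genes of replication licensing and the fork, 4 of nucleotide supply, 9 cyclins and cyclin-dependent kinases (CDKs), 8 mitotic kinases and checkpoint genes, and 8 genes of the spindle and the condensed chromosome. RNA came from the spinal cord of wild-type mice in 3 groups of 3 libraries. Mice of the first group received GV1001, a peptide derived from telomerase, and had EAE (experimental autoimmune encephalomyelitis). This disease models multiple sclerosis, and an immune attack on myelin inflames the cord. Mice of the second group had EAE and received vehicle. Mice of the third group were naive. Strain, age, sex, immunising agent, dose and sampling day are not given in the labels. The labels do not say whether the 3 libraries of a group came from separate animals. If they did not, the p-values measure only the spread between these samples, which may be technical.

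Before S phase, Cdt1 and Cdc6 load the ring-shaped helicase made of Mcm2 to Mcm7 onto DNA, and geminin (Gmnn) blocks a further round of loading by binding Cdt1. Cyclin E and cyclin A with Cdk2 start and sustain replication, and cyclin B with Cdk1 drives entry into mitosis. Many replication genes are known targets of E2F factors, and many mitotic genes are known targets of the DREAM and MuvB complexes. These complexes bind a short element called the CHR. In the healthy adult cord the main dividing cells are oligodendrocyte precursors. In EAE, microglia are known to proliferate, and infiltrating T cells and monocytes can also divide.

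Promoters of 5 members that carry the E2F or CHR letters are printed to show these regulatory words. Each runs from 250 bases before to 50 bases after the annotated start, 300 bases in all, 5′ to 3′ on the gene's strand, from RefSeq on GRCm38.p6. Capitals mark E2F words (TTTCCCGC, TTTGGCGC, TTTCGCGC or TTTGCCGC), the CHR word (TTTGAA) and the CCAAT box, each searched on both strands, so TTCAAA and ATTGG are also capitals. The long capital run of Mcm6 holds a pair of overlapping E2F words.
Mcm3 (chr1:20820263-20820562, minus strand): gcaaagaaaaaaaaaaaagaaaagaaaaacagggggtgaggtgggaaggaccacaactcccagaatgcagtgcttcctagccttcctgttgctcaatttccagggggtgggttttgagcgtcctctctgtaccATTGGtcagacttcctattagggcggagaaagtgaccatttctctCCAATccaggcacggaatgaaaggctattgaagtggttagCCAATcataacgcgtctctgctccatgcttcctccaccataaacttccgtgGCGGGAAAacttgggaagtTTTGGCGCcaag
Mcm6 (chr1:128359656-128359955, minus strand): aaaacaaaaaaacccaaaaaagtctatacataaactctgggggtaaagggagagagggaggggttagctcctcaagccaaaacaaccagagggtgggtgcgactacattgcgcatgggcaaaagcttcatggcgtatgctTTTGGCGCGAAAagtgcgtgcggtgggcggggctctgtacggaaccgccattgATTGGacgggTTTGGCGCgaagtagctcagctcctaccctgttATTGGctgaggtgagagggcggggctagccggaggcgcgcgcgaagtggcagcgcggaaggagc
Cdk1 (chr10:69352863-69353162, minus strand): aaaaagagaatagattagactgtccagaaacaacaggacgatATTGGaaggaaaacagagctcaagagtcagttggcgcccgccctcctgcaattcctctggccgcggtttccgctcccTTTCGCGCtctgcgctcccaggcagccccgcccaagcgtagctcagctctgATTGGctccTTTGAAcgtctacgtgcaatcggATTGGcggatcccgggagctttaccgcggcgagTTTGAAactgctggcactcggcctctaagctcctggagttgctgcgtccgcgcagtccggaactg
Top2a (chr11:99024140-99024439, minus strand): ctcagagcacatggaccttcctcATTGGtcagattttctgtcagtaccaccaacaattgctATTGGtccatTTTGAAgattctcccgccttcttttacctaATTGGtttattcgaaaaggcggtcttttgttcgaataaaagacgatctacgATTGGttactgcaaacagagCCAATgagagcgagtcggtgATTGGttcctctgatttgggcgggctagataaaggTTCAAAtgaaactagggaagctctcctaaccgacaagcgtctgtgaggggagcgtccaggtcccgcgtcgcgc
Bub1b (chr2:118597961-118598260, plus strand): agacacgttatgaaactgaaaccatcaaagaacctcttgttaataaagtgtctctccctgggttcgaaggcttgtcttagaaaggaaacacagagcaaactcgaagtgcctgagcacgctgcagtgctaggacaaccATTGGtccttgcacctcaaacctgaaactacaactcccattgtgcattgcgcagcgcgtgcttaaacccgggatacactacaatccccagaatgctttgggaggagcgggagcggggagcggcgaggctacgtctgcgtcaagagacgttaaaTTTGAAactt

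A promoter was found for 32 of the 40 members. Mcm4, Gmnn, Ccnd1, Ccnd2, Ccne2, Ccna2, Aurkb and Tpx2 had none in the sequence table. Only the first listed promoter of each gene was counted. Mcm7 and Uhrf1 had a further promoter. That of Uhrf1 held an E2F word, unlike its counted one, and that of Mcm7 held none, unlike its counted one. An E2F word stood in 8 of the 32 (25.0%), against 2.32% of the 27025 genes with a promoter of the same length. Among licensing and fork genes it stood in 6 of 9 (66.7%), and among the 14 mitotic promoters in 0. The CHR letters stood in 13 of 32 (40.6%), against 18.1% of all promoters. Of the 14 mitotic promoters, 10 held them (71.4%), while 1 of the 9 licensing promoters did. CCAAT stood in 25 of 32 (78.1%), against 37.9% of all. Cdk1 was the 1 member with both an E2F word and the CHR letters. At least 1 of these 2 motifs stood in 20 of the 32 (62.5%), against 20.1% of all. Of the 4 nucleotide supply promoters, 0 held either. In all 32 promoters, 1 match of one motif overlapped a match of another. These matches describe letters in the window and do not show that a factor bound them.

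Total counts per library ranged from 5247246 to 6174870, and levels are given as CPM, the count scaled by the total of its library. Taking 3 counts as the floor, a gene with no count in a library could be at up to 0.486 to 0.572 CPM. Floors and intervals cover counting error only. After the filter on low counts, 15351 genes and 34 of the 40 members could be tested. Cdc6, Uhrf1, Tk1, Ccnb1, Aurkb and Bub1 were too low. Defining markers of neurons, oligodendrocytes and astrocytes and the Hox genes of the cord had counts in every group. The EAE libraries differed within their groups in their markers of immune cells. Summed levels of 12 microglial markers were 455, 1690 and 676 CPM with GV1001, 4430, 799 and 2070 CPM with vehicle, and 365, 418 and 440 CPM in naive cord. Vehicle replicate 1 stood apart, and many results are given with and without it. Where no value without it is given, a result may still rest on it. In whole cord, fewer cells of a type and less RNA per cell cannot be told apart.

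Most of the 40 genes were higher on average in vehicle-treated EAE than in naive cord, and vehicle replicate 1 held most of that difference. With GV1001 most were lower on average than with vehicle and a little higher than in naive cord. No member passed the edgeR test at an adjusted p of 0.05 in any of the 3 comparisons. The summed level of the 40 members was 428, 551 and 449 CPM in the GV1001 libraries, 873, 490 and 534 CPM in the vehicle libraries, and 392, 427 and 411 CPM in the naive libraries. All 6 EAE libraries were above the naive range, GV1001 replicate 1 only just. The D-type cyclins Ccnd1 and Ccnd2 weigh heavily in that sum. Without them, the other 38 members summed to 201, 249 and 198 CPM with GV1001, 457, 264 and 234 CPM with vehicle, and 161, 187 and 182 CPM in naive cord. Here too the vehicle libraries lay above all naive libraries. The ratio of vehicle to naive was 1.54 over 40 members and 1.80 over 38, and 1.25 and 1.41 without vehicle replicate 1.

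**Figure D1:**
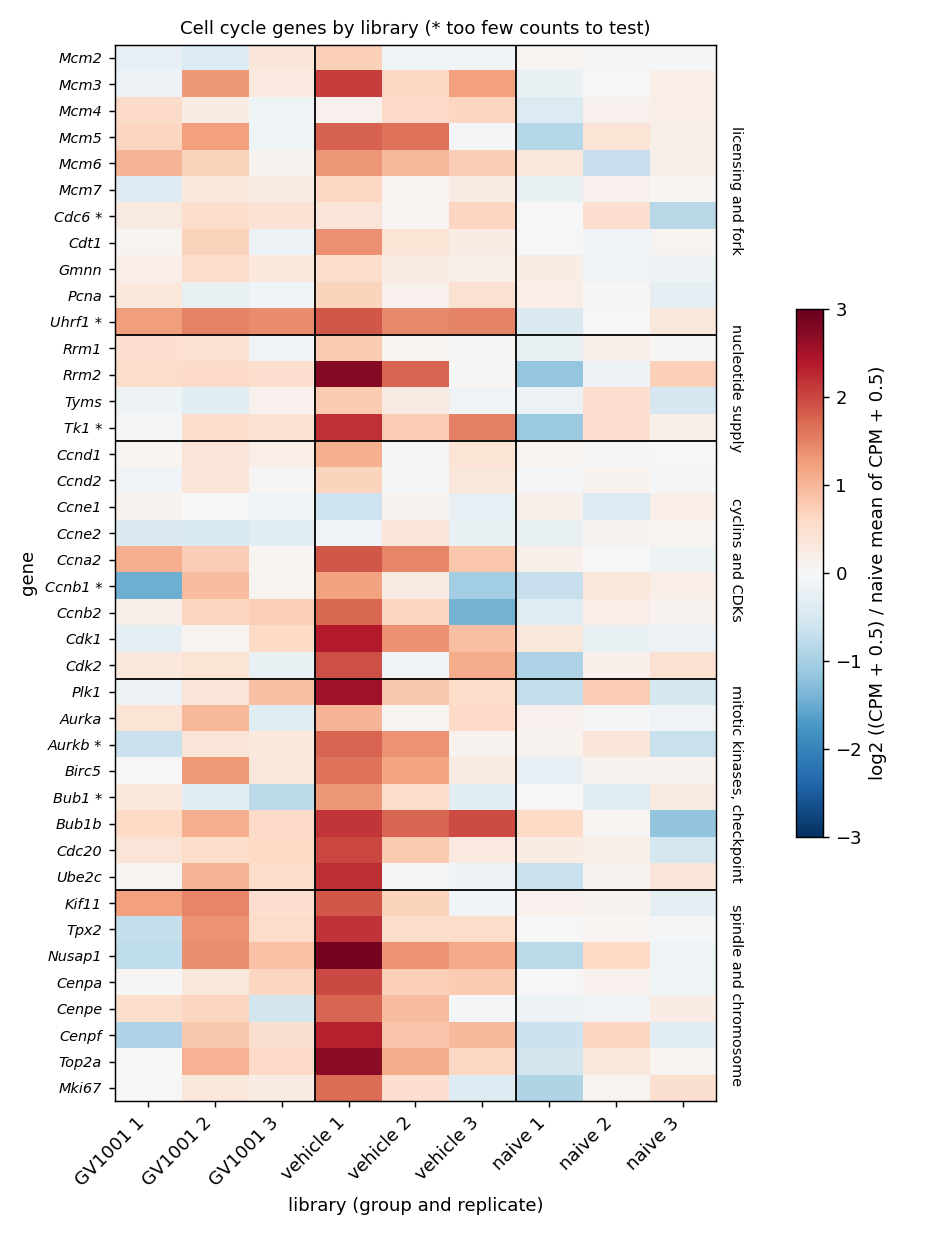
Level of each of the 40 genes (rows, grouped by role) in each of the 9 libraries (columns), as log2 of CPM plus 0.5 relative to the naive mean; stars mark the 6 genes with too few counts to test. The column of vehicle replicate 1 is the reddest in most rows, and it is the highest library for 35 of the 40 genes.

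Vehicle replicate 1 was the highest of the 9 libraries for 35 of the 40 members and 30 of the 34 tested ones, against 21.3% of all tested genes. The exceptions were Mcm4 and Cdc6, highest in vehicle replicate 3, Ccne2 in vehicle replicate 2, Gmnn in GV1001 replicate 2 and Ccne1 in naive replicate 3. Set against the naive range, 12, 29 and 17 of the 40 members lay above every naive library in GV1001 replicates 1 to 3. In vehicle replicates 1 to 3 these were 36, 27 and 23. Among all tested genes the same shares were 34%, 33.7% and 31.9% in the GV1001 libraries and 34.3%, 36.6% and 38.6% in the vehicle libraries. Of the 34 tested members, 10, 24 and 16 lay above every naive library in GV1001 replicates 1 to 3, and 31, 23 and 20 in vehicle replicates 1 to 3. In GV1001 replicate 1 the share of the 40 members, 30.0%, was below that of all tested genes. A share over few genes moves more between libraries than one over all genes, so their spreads cannot be compared.

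The first comparison, vehicle-treated EAE with naive cord, addressed these genes in the diseased cord. Of 34 tested members, 33 had a positive log2 fold change, with a median of 1.16, while the median over all 15351 tested genes was −0.0047. By edgeR's quasi-likelihood test 0 of 34 members passed, as did 3 genes of all tested (0.0195%), and the smallest adjusted p of a member was 0.0674. At an unadjusted p under 0.05 there were 17 members, against 2970 of all genes. DESeq2 called 5 members (Bub1b, Cdk1, Mcm3, Nusap1 and Top2a), against 6.41% of its 17212 genes, and limma-voom called none. At an adjusted p of 0.1 edgeR called 3 members (Bub1b, Ccna2 and Cdk1), against 5.62% of all tested genes. Without the filter on low counts it called Bub1b and Cdk1 at 0.05, against 2.02% of all genes. Without vehicle replicate 2 it called 8 members, against 10.4% of all genes tested then. That library stood apart in its 7 erythroid markers, which summed to 4870 CPM there and to between 255 and 723 CPM in the other 8 libraries. In 13 of the 34 tested members all 3 vehicle libraries lay above all 3 naive libraries, against 13.6% of all tested genes. With the untested genes these were 15 of 40: Mcm3, Mcm6, Cdt1, Uhrf1, Tk1, Ccna2, Cdk1, Birc5, Bub1b, Cdc20, Tpx2, Nusap1, Cenpa, Cenpf and Top2a. Without vehicle replicate 1, 30 of 34 fold changes stayed positive and the median was 0.53. Then 14 tested members did not overlap with naive from above, against 21.3% of all tested genes. Such a count cannot fall when a library is left out.

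By role the median log2 fold change of vehicle against naive was 0.45 for licensing and fork, 0.34 for nucleotide supply, 0.75 for cyclins and CDKs, 1.37 for mitotic kinases and checkpoint, and 1.45 for spindle and chromosome. Without vehicle replicate 1 these medians were 0.31, 0.03, 0.12, 0.69 and 0.70 in the same order. The mitotic roles thus had the higher medians with and without that library. The 16 mitotic genes summed to 38.2, 73.3 and 49.2 CPM with GV1001, 187, 73.9 and 56.3 CPM with vehicle, and 28.9, 43.2 and 34.6 CPM in naive cord. Vehicle replicates 2 and 3 lay close to GV1001 replicates 2 and 3 here, and every EAE library except GV1001 replicate 1 was above the naive range.

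Mcm3, a subunit of the replicative helicase, was at 5.67, 16.7 and 7.94 CPM with GV1001, 28.6, 10.1 and 15.7 CPM with vehicle, and 5.52, 6.39 and 7.40 CPM in naive cord. Every vehicle library was above every naive one, and the GV1001 libraries spanned both. Its log2 fold change was 1.47 ± 0.46 (SE) in vehicle against naive (edgeR adjusted p = 0.114), with 0.95 without vehicle replicate 1, and −0.85 ± 0.43 in GV1001 against vehicle (adjusted p = 0.576), with −0.33 without that library. DESeq2 called Mcm3 in vehicle against naive (adjusted p = 0.0233). Mcm6, another subunit, was at 10.2, 7.93 and 5.18 CPM with GV1001, 12.6, 9.72 and 8.19 CPM with vehicle, and 6.06, 2.76 and 5.41 CPM in naive cord. The vehicle and naive libraries did not overlap, and the log2 fold change was 1.07 ± 0.35 (adjusted p = 0.127), with 0.86 without vehicle replicate 1.

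Mcm4 was at 24.7, 19.2 and 14.9 CPM with GV1001, 18.1, 24.8 and 26.1 CPM with vehicle, and 12.3, 18.0 and 19.1 CPM in naive cord. Mcm4 and Ccne1 were the 2 members for which vehicle replicate 1 was the lowest vehicle library, and the groups overlapped. Mcm7 was at 11.5, 18.9 and 18.1 CPM with GV1001, 23.5, 16.2 and 18.1 CPM with vehicle, and 13.0, 16.6 and 15.9 CPM in naive cord, again with overlap. Mcm5 averaged 4.08 ± 2.04 CPM with GV1001, 6.60 ± 3.78 CPM with vehicle and 2.35 ± 1.15 CPM in naive cord (SD, n = 3 each). Its log2 fold change was 1.44 ± 0.59 (SE) in vehicle against naive (adjusted p = 0.212) and 1.08 without vehicle replicate 1. Mcm2 averaged 8.92 ± 2.83, 10.9 ± 4.09 and 9.27 ± 0.463 CPM in the GV1001, vehicle and naive groups, a log2 fold change of 0.21 ± 0.31 in vehicle against naive. In vehicle against naive the log2 fold changes of the 6 subunits thus ran between 0.21 and 1.47, and their differences were not tested. That of Mcm2 was −0.17 without vehicle replicate 1.

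Cdt1, the helicase loader, was at 3.40, 5.47 and 2.75 CPM with GV1001, 8.98, 4.38 and 3.83 CPM with vehicle, and 3.21, 2.93 and 3.43 CPM in naive cord. Vehicle libraries lay above naive ones, but replicates 2 and 3 only by a small margin (log2 fold change 0.82 ± 0.42, adjusted p = 0.323, and 0.31 without vehicle replicate 1). Its inhibitor Gmnn averaged 7.69 ± 1.03, 7.43 ± 1.05 and 5.84 ± 0.959 CPM in the GV1001, vehicle and naive groups, with overlap. Pcna, the sliding clamp of the polymerases, was at 11.9, 8.11 and 8.91 CPM with GV1001, 15.4, 10.5 and 13.2 CPM with vehicle, and 11, 9.84 and 7.76 CPM in naive cord. These ranges overlapped, with log2 fold changes of 0.42 ± 0.24 in vehicle against naive and −0.45 ± 0.24 in GV1001 against vehicle, which were 0.26 and −0.28 without vehicle replicate 1.

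Uhrf1, which brings the maintenance methyltransferase to newly copied DNA, was the licensing and fork gene with the largest ratio, though too low to test. It had 22 counts over the GV1001 libraries, 26 over the vehicle libraries and 3 over the naive libraries. Both EAE groups lay above naive in every library. The ratio of vehicle to naive was 8.87 (exact Poisson 95% interval 2.72 to 45.8) and that of GV1001 to naive 7.25 (2.18 to 37.8). GV1001 against vehicle gave 0.817 (0.441 to 1.5). Cdc6 had 19, 18 and 12 counts in the GV1001, vehicle and naive groups, too few to tell groups apart.

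**Figure D2:**
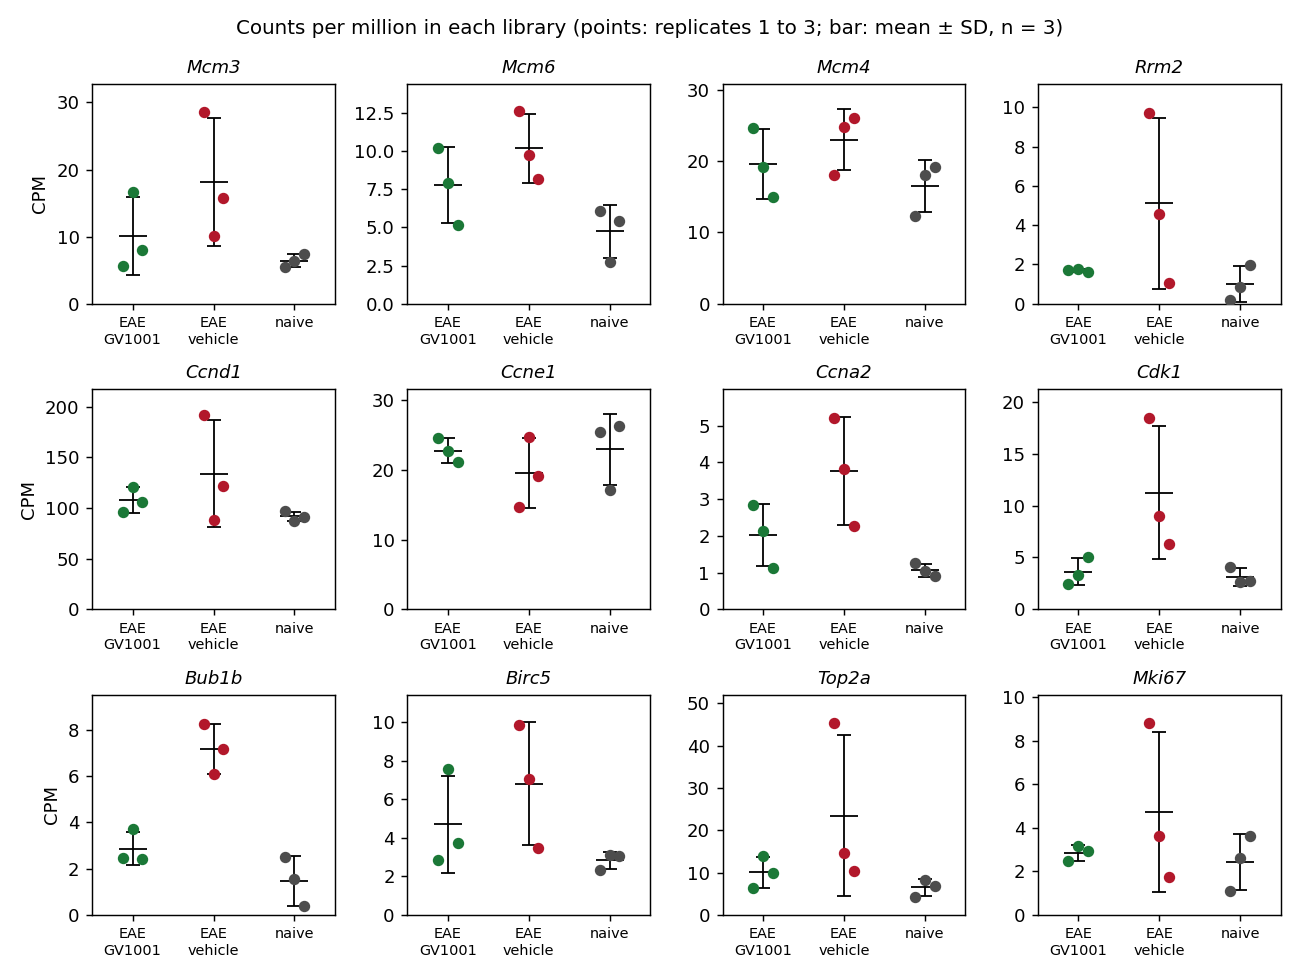
CPM of 12 of the genes in each library (points), with the mean and SD of each group (n = 3), for GV1001, vehicle and naive cord; each panel has its own axis starting at 0. Bub1b is high in all 3 vehicle libraries, between 6.10 and 8.26 CPM, while Top2a and Mki67 are far higher in vehicle replicate 1 than in the others.

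Among the genes of nucleotide supply, Rrm2, the small subunit of ribonucleotide reductase, had the largest fold change. It was at 1.70, 1.76 and 1.62 CPM with GV1001, 9.70, 4.57 and 1.05 CPM with vehicle, and 0.178, 0.863 and 1.98 CPM in naive cord. Vehicle replicate 3 lay within the naive range, and the GV1001 libraries were close to each other. Its log2 fold change was 2.29 ± 0.81 (SE) in vehicle against naive (adjusted p = 0.149) and −1.58 ± 0.72 in GV1001 against vehicle (adjusted p = 0.548). Without vehicle replicate 1 these were 1.38 and −0.66. The large subunit, Rrm1, was at 22.3, 21.5 and 14.4 CPM with GV1001, 27.1, 16.6 and 16 CPM with vehicle, and 13.4, 17.4 and 16.1 CPM in naive cord. Its groups overlapped, with a log2 fold change of 0.33 ± 0.26 in vehicle against naive and 0.01 without vehicle replicate 1.

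Tyms, thymidylate synthase, was at 7.75, 6.88 and 9.55 CPM with GV1001, 15.3, 10.5 and 8.02 CPM with vehicle, and 7.66, 12.4 and 5.95 CPM in naive cord. All 3 groups overlapped. Tk1, the thymidine kinase of cycling cells, had 15 counts with GV1001, 47 with vehicle and 10 in naive cord. Its vehicle libraries, at 4.49, 1.33 and 2.61 CPM, lay above all GV1001 libraries (0.567, 1.06 and 0.972 CPM) and all naive libraries (0, 1.04 and 0.722 CPM). Vehicle replicate 2 had only 7 counts, against 6 in GV1001 replicates 2 and 3 and in naive replicate 2. Vehicle replicate 1 held 25 of the 47 vehicle counts. The ratio was 4.81 (2.40 to 10.7) for vehicle to naive and 0.308 (0.160 to 0.561) for GV1001 to vehicle, as exact Poisson intervals. These intervals do not cover the spread between libraries.

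Ccnd2, a D-type cyclin that responds to growth signals, was at 131, 181 and 145 CPM with GV1001, 224, 139 and 178 CPM with vehicle, and 135, 153 and 137 CPM in naive cord. Ccnd1, its relative, was at 95.6, 121 and 106 CPM with GV1001, 192, 87.7 and 122 CPM with vehicle, and 96.6, 87.5 and 91.1 CPM in naive cord. Both overlapped between all groups, with log2 fold changes of 0.32 ± 0.18 (SE) for Ccnd2 and 0.53 ± 0.24 for Ccnd1 in vehicle against naive (adjusted p = 0.361 and 0.260). These were 0.11 and 0.14 without vehicle replicate 1. Both genes are also expressed by cells that do not divide.

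Ccne1, an E-type cyclin of the G1 to S transition, was the 1 tested member with a negative log2 fold change in vehicle against naive, −0.27 ± 0.22. It was at 24.6, 22.7 and 21.1 CPM with GV1001, 14.7, 24.8 and 19.2 CPM with vehicle, and 25.5, 17.1 and 26.3 CPM in naive cord. Vehicle replicate 1, highest for most members, was the lowest of the 9 libraries for Ccne1. Ccne2, the second E-type cyclin, was at 5.86, 5.82 and 6.32 CPM with GV1001, 7.54, 10.7 and 6.97 CPM with vehicle, and 6.95, 8.80 and 8.66 CPM in naive cord. All 3 GV1001 libraries lay below all vehicle and all naive libraries, with log2 fold changes of −0.47 ± 0.25 (adjusted p = 0.589) and −0.46 ± 0.25 (adjusted p = 0.730). It was the 1 tested member lower without overlap in GV1001 against naive, against 6.7% of all tested genes.

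Ccna2, the cyclin of S phase and G2, was at 2.83, 2.12 and 1.13 CPM with GV1001, 5.21, 3.81 and 2.27 CPM with vehicle, and 1.25, 1.04 and 0.902 CPM in naive cord. The vehicle libraries lay above the naive ones. The log2 fold change was 1.77 ± 0.50 in vehicle against naive (adjusted p = 0.0955) and 1.43 without vehicle replicate 1. Ccnb2, a B-type cyclin that binds Cdk1 in mitosis, was at 1.51, 2.29 and 2.43 CPM with GV1001, 5.39, 2.29 and 0.174 CPM with vehicle, and 0.891, 1.55 and 1.44 CPM in naive cord. Vehicle replicate 3 held 1 count, and the log2 fold change was 0.96 ± 0.77 with all libraries and −0.18 without vehicle replicate 1. Ccnb1, the other B-type cyclin, had 18, 22 and 15 counts in the GV1001, vehicle and naive groups.

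Cdk1, the mitotic kinase and the tested member with the lowest fold change in GV1001 against vehicle, was at 2.46, 3.35 and 5.02 CPM with GV1001, 18.5, 8.96 and 6.28 CPM with vehicle, and 4.10, 2.59 and 2.71 CPM in naive cord. All vehicle libraries lay above all libraries of both other groups. The log2 fold change was 1.82 ± 0.47 (SE) in vehicle against naive (edgeR adjusted p = 0.0808) and −1.62 ± 0.45 in GV1001 against vehicle (adjusted p = 0.528). Without vehicle replicate 1 these were 1.22 and −1.02. DESeq2 called Cdk1 in vehicle against naive (adjusted p = 0.008), as did edgeR without the filter on low counts (adjusted p = 0.0372). Cdk2, the kinase of S phase, averaged 4.48 ± 1.09 CPM with GV1001, 9.5 ± 6.20 CPM with vehicle and 3.84 ± 1.86 CPM in naive cord (SD, n = 3 each). Vehicle replicate 2, at 3.62 CPM, lay within the naive range.

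The mitotic kinases and checkpoint genes held the member with the smallest p. Bub1b, which encodes the checkpoint protein BubR1, was at 2.46, 3.70 and 2.43 CPM with GV1001, 8.26, 6.10 and 7.15 CPM with vehicle, and 2.49, 1.55 and 0.361 CPM in naive cord. The 3 vehicle libraries were close to each other and above every library of the other groups. The log2 fold change was 2.24 ± 0.43 (SE) in vehicle against naive (edgeR adjusted p = 0.0674) and −1.32 ± 0.37 in GV1001 against vehicle (adjusted p = 0.528). It was the member least moved by leaving out vehicle replicate 1 among those with a fold change above 2, at 2.10 and −1.18. DESeq2 (adjusted p = 0.00241) and edgeR without the filter on low counts (adjusted p = 0.0185) called it in vehicle against naive. In GV1001 against naive its log2 fold change was 0.92 ± 0.51 (adjusted p = 0.742).

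Plk1, a kinase of mitotic entry and exit, was at 1.32, 2.12 and 3.24 CPM with GV1001, 11.3, 3.05 and 2.44 CPM with vehicle, and 0.713, 2.93 and 0.902 CPM in naive cord. Only vehicle replicate 1 stood clear of the naive range by more than a small margin, and the fold change of 1.84 ± 0.73 (adjusted p = 0.196) was 0.77 without it. Birc5, survivin of the chromosomal passenger complex, was at 2.83, 7.58 and 3.72 CPM with GV1001, 9.88, 7.05 and 3.49 CPM with vehicle, and 2.32, 3.11 and 3.07 CPM in naive cord. Vehicle and naive libraries did not overlap, and GV1001 replicate 2 lay among the vehicle libraries. Cdc20, an activator of the anaphase-promoting complex, averaged 2.73 ± 0.242 CPM with GV1001, 4.77 ± 3.38 CPM with vehicle and 1.76 ± 0.591 CPM in naive cord. Both EAE groups lay above naive without overlap, though the lowest vehicle library, at 2.27 CPM, was close to the highest naive one, at 2.14 CPM. Its 3′ end meets that of Elovl1 on the other strand, and whether counting used strand is not given in the sources used here.

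Ube2c, the ubiquitin-conjugating enzyme of the same complex, rested on 1 library. It was at 1.51, 3.35 and 2.27 CPM with GV1001, 8.44, 1.33 and 1.22 CPM with vehicle, and 0.713, 1.55 and 1.98 CPM in naive cord, so vehicle replicates 2 and 3 were within the naive range. Its log2 fold change in vehicle against naive was 1.34 ± 0.80 with that library and −0.20 without it. Aurka, the centrosomal Aurora kinase, averaged 2.37 ± 1.29, 2.70 ± 1.03 and 1.59 ± 0.173 CPM in the GV1001, vehicle and naive groups. Aurkb, the passenger complex kinase, had 6, 22 and 5 counts in the GV1001, vehicle and naive groups, a ratio of 4.50 (1.66 to 15.2) for vehicle to naive. Vehicle replicate 1 held 12 of the 22 counts. The vehicle libraries of Aurkb were at 2.15, 1.52 and 0.349 CPM and its naive libraries at 0.356, 0.518 and 0 CPM. Vehicle replicate 3 thus lay within the naive range. Bub1, a checkpoint kinase, had 4, 14 and 6 counts in those groups.

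All 8 spindle and chromosome genes were tested, and 5 were higher without overlap in vehicle than in naive cord, against 13.6% of all tested genes. Top2a, the topoisomerase that untangles replicated chromosomes, was at 6.42, 13.8 and 9.88 CPM with GV1001, 45.3, 14.7 and 10.3 CPM with vehicle, and 4.28, 8.29 and 6.86 CPM in naive cord. Vehicle replicate 1 was far above the rest, and the other vehicle libraries were near the upper GV1001 values. The log2 fold change was 1.83 ± 0.56 (SE) in vehicle against naive (adjusted p = 0.110, DESeq2 adjusted p = 0.00853), with 0.88 without that library, and −1.23 ± 0.52 in GV1001 against vehicle (adjusted p = 0.539), with −0.28 without it. Nusap1, a microtubule-binding protein of the spindle, was at 0.756, 5.11 and 3.40 CPM with GV1001, 15.1, 4.95 and 4.18 CPM with vehicle, and 0.713, 2.76 and 1.44 CPM in naive cord. GV1001 replicate 1 lay at the low end of the naive range. Its log2 fold change in vehicle against naive was 2.26 ± 0.72 (adjusted p = 0.119, DESeq2 adjusted p = 0.0297) and 1.40 without vehicle replicate 1.

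Cenpf, a kinetochore protein, was at 1.51, 6.17 and 4.86 CPM with GV1001, 18.7, 6.48 and 6.97 CPM with vehicle, and 1.96, 5.52 and 2.53 CPM in naive cord. The vehicle libraries lay above all others, with vehicle replicate 2 just above GV1001 replicate 2. Cenpe, the kinetochore motor, was at 7.75, 8.46 and 3.40 CPM with GV1001, 18.7, 10.3 and 5.06 CPM with vehicle, and 4.63, 4.83 and 6.13 CPM in naive cord, with overlap in each comparison. Cenpa, the histone variant of the centromere, averaged 2.71 ± 0.664 CPM with GV1001, 5.60 ± 3.24 CPM with vehicle and 2.00 ± 0.223 CPM in naive cord. Its vehicle libraries lay above those of both other groups.

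Kif11, the bipolar spindle motor, had the largest log2 fold change of the 34 tested members in GV1001 against naive. It was at 2.46, 3.00 and 1.30 CPM with GV1001, 4.13, 1.52 and 0.697 CPM with vehicle, and 0.891, 0.863 and 0.541 CPM in naive cord. The GV1001 libraries lay above the naive ones, while vehicle replicate 3 did not, and the log2 fold change of GV1001 against naive was 1.48 ± 0.71 (adjusted p = 0.702). Tpx2, an activator of Aurka, averaged 4.09 ± 2.87, 6.86 ± 5.26 and 2.48 ± 0.123 CPM in the GV1001, vehicle and naive groups. Mki67, the gene of the proliferation marker Ki-67, was at 2.46, 3.17 and 2.92 CPM with GV1001, 8.80, 3.62 and 1.74 CPM with vehicle, and 1.07, 2.59 and 3.61 CPM in naive cord. Its groups overlapped, and the log2 fold change in vehicle against naive was 0.93 ± 0.59 with all libraries and 0.07 without vehicle replicate 1.

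**Figure D3:**
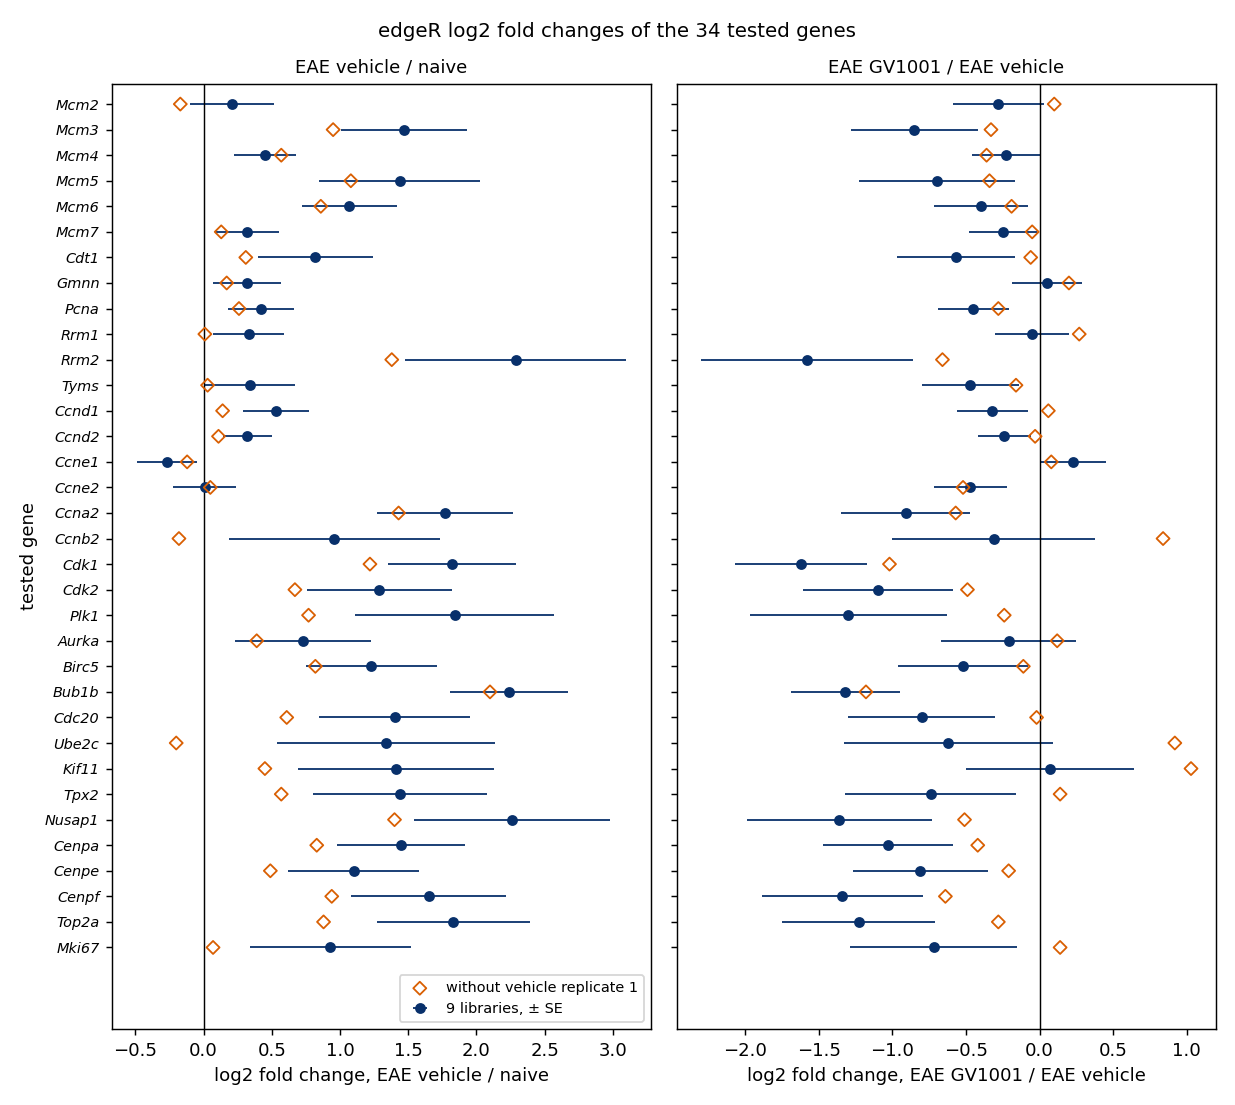
edgeR log2 fold change of each tested gene (circles with SE, 9 libraries) in vehicle against naive (left) and GV1001 against vehicle (right), with the value when vehicle replicate 1 is left out (diamonds). The diamonds lie nearer 0 for most genes. They cross 0 for 3 genes on the left (Mcm2, Ccnb2 and Ube2c) and for 8 on the right, while those of Bub1b stay at 2.10 and −1.18.

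The second comparison, GV1001 with vehicle among mice with EAE, addressed the peptide in the diseased cord. Of 34 tested members, 31 had a negative log2 fold change and 3 a positive one (Gmnn, Ccne1 and Kif11), with a median of −0.60, against −0.0088 over all tested genes. By edgeR 0 members passed and 0 genes of all tested (0%), with 5 members and 1394 genes at an unadjusted p under 0.05. DESeq2 called 0 members and 0.0856% of its 15188 genes, and limma-voom called none. In 5 of the 34 tested members all GV1001 libraries lay below all vehicle libraries, against 5.03% of all tested genes. With the untested Tk1 these were Ccne2, Cdk1, Bub1b, Cenpa and Cenpf. By role the medians were −0.40 for licensing and fork, −0.47 for nucleotide supply, −0.40 for cyclins and CDKs, −0.71 for mitotic kinases and checkpoint, and −0.92 for spindle and chromosome. Without vehicle replicate 1 they were −0.19, −0.16, −0.26, −0.06 and −0.24 in the same order, and cyclins and CDKs were then lowest.

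Vehicle replicate 1 carried much of this difference too. Without it, 11 of 34 log2 fold changes were positive and the median was −0.17. The summed level of the 40 members was 476 ± 66.0 CPM with GV1001 and 632 ± 210 CPM with vehicle (SD, n = 3 each), a ratio of 0.753 that was 0.930 without that library. Ube2c, Ccnb2 and Kif11 then had log2 fold changes of 0.92, 0.84 and 1.03. Cdk1 and Bub1b kept negative values, as given above. Their groups still did not overlap, but leaving out a library cannot create an overlap. Markers of other tissues and cells differed between these groups as well. The 7 skeletal muscle markers summed to 3840, 1000 and 366 CPM with GV1001 and 97.0, 403 and 17.6 CPM with vehicle. Sums of 6 Schwann cell markers were 1610, 1690 and 2390 CPM with GV1001 and 341, 1020 and 1730 CPM with vehicle. Neutrophil markers, 8 in all, summed to 346, 224 and 413 CPM with GV1001 and 182, 283 and 109 CPM with vehicle, so that vehicle replicate 1 was not their highest library. Their part in the members' values was not tested. This comparison and the first share the vehicle libraries, so opposite signs in them are not independent.

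The third comparison set GV1001-treated EAE against naive cord. Of 34 tested members, 29 had a positive log2 fold change, with a median of 0.39, against 0.0019 over all tested genes. By edgeR 0 members passed and 0 genes of all tested (0%), with 0 members and 1121 genes at an unadjusted p under 0.05. DESeq2 called 0 members and 0.24% of its 18730 genes, and limma-voom called 0 of either. Cdc20 and Kif11 were higher without overlap, 2 of 34 tested members, against 10.2% of all tested genes. By role the medians were 0.25, 0.28, 0.19, 0.65 and 0.51, in the order used above. GV1001 replicate 2 was the highest of its group for the 40 members together, at 551 CPM, and replicate 1 the lowest, at 428 CPM.

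Other genes of the same pathways were read from 4 lists of 123 genes, of which 102 were tested. By edgeR 0 passed in any comparison, in either direction. In vehicle against naive 5 replication, 11 mitosis, 5 E2F and Rb and 3 inhibitor or partner genes were at an unadjusted p under 0.05, limma-voom called none, and DESeq2 called Ccnd3, Cdca8, Cdk6, Ckap2l, Hmgb2, Kif2c and Pbk. These 7 of 123 genes compare with 6.41% of all genes by DESeq2, and the unadjusted counts with 2970 of 15351 genes. In the same order these unadjusted counts were 2, 4, 2 and 0 in GV1001 against vehicle and 1, 5, 2 and 1 in GV1001 against naive, and neither DESeq2 nor limma-voom called any there. In vehicle against naive the medians were 0.15 for 38 other replication genes (24 positive), 0.59 for 32 other mitosis genes (26 positive), 0.28 for 19 E2F, Rb and related transcription genes (12 positive), and 0.12 for 13 CDK inhibitors and partners (10 positive). These medians were 0.11, 0.24, 0.35 and 0.10 without vehicle replicate 1. Pbk, a mitotic kinase, was at 1.13, 3.00 and 0.810 CPM with GV1001, 10.4, 5.15 and 3.66 CPM with vehicle, and 0.356, 0.345 and 0.361 CPM in naive cord. The vehicle libraries stood above all others, with log2 fold changes of 4.07 ± 0.69 in vehicle against naive (edgeR adjusted p = 0.0629, DESeq2 adjusted p = 0.000163) and −1.96 ± 0.50 in GV1001 against vehicle (adjusted p = 0.528). Hmgb2, a chromatin protein of proliferating cells, averaged 16.4 ± 1.40, 23.7 ± 4.66 and 10.6 ± 3.55 CPM in the GV1001, vehicle and naive groups, with 1.13 ± 0.24 in vehicle against naive (adjusted p = 0.0703).

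Ccnd3, the remaining D-type cyclin, was at 47.6, 46.9 and 45.2 CPM with GV1001, 57.5, 51.5 and 50.7 CPM with vehicle, and 36.9, 31.1 and 42.0 CPM in naive cord. Its 3 groups did not overlap, and the log2 fold change was 0.51 ± 0.14 in vehicle against naive (adjusted p = 0.0855). Cdk6, its kinase partner, had 1.06 ± 0.33 (adjusted p = 0.115), and Rb1, the retinoblastoma protein they phosphorylate, 0.68 ± 0.22 (adjusted p = 0.120). E2f8, a repressive E2F made in S phase, had 2.44 ± 0.74 (adjusted p = 0.102) on 6 naive counts. Among replication genes, Orc2 of the origin recognition complex was lower in vehicle than in naive cord without overlap, at −0.51 ± 0.14 (adjusted p = 0.0953), and the polymerase subunit Pold1 was at 0.97 ± 0.33 (adjusted p = 0.134). None of these passed.

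In GV1001 against vehicle the medians of the 4 lists were −0.16 for other replication, −0.46 for other mitosis, −0.31 for the E2F and Rb list and −0.11 for CDK inhibitors and partners. Ckap2, a spindle protein, had −1.78 ± 0.48, and Rbl1, the Rb relative p107, −1.72 ± 0.49 (adjusted p = 0.528 each). Dnmt1, the maintenance methyltransferase, had −0.31 ± 0.13 (adjusted p = 0.539). Myc had −1.47 ± 0.66, Cdk6 −0.60 ± 0.32 and the CDK inhibitor Cdkn1a 0.21 ± 0.14. In GV1001 against naive the medians were 0.04, 0.10, 0.01 and 0.16 in the same order of lists. The values with the smallest p there were 1.28 ± 0.46 for Kif23, 0.23 ± 0.09 for Bub3, 1.83 ± 0.81 for E2f8, −0.46 ± 0.20 for Lin54, 0.32 ± 0.14 for Ccnd3, 1.28 ± 0.60 for Cdkn2c, 0.39 ± 0.18 for Pold2 and −0.30 ± 0.14 for Orc2. Adjusted p was at least 0.654 for each of them.

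Markers of microglia, monocytes and T cells were highest in the same library as most members. The 12 microglial markers averaged 940 ± 658 CPM in sum with GV1001, 2430 ± 1840 CPM with vehicle and 408 ± 39.0 CPM in naive cord. The 10 monocyte and macrophage markers summed to 76.7, 284 and 95.1 CPM with GV1001, 1090, 110 and 292 CPM with vehicle, and 43.5, 50.1 and 48.0 CPM in naive cord. Vcan, which is also in the list of oligodendrocyte precursor markers, held 29.4, 27.8 and 29.2 CPM of these naive sums. The 10 T cell markers summed to 8.69, 33.3 and 10.7 CPM with GV1001, 101, 8.96 and 20.9 CPM with vehicle, and 5.88, 5.18 and 4.87 CPM in naive cord, where Cd3d, Cd3g, Cd4, Cd8a and Cd2 had no count. Icos held 4.45, 3.80 and 3.97 CPM of the naive T cell sums. Vehicle replicate 1 was highest for all 3 lists, and GV1001 replicate 2 was the highest of its group for all 3, as for the mitotic members. Vehicle replicate 2 departed from that order. It was below vehicle replicate 3 for all 3 immune lists, but above it for the 16 mitotic members, at 73.9 against 56.3 CPM.

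Of the 12 microglial markers, 12 of 12 tested had a positive log2 fold change in vehicle against naive, of the monocyte markers 10 of 10, and of the T cell markers 3 of 3. By edgeR 0 passed, with 11, 9 and 3 at an unadjusted p under 0.05, against 2970 of all 15351 tested genes. DESeq2 called 10 of 12, 8 of 10 and 6 of 10, against 6.41% of its 17212 genes. The 8 markers of oligodendrocyte precursors summed to 854, 837 and 992 CPM with GV1001, 851, 847 and 838 CPM with vehicle, and 1020, 1020 and 968 CPM in naive cord. Bcas1 and Ptprz1 made up most of that sum, which was not higher in any EAE library than in the highest naive library. The sum therefore says little about the other markers of the list. Of the 8 markers, 4 had a positive log2 fold change in vehicle against naive and 4 a negative one. By edgeR 0 passed, with 1 at an unadjusted p under 0.05, and DESeq2 called 1 of the 8. Of the 8, 0 were higher without overlap in vehicle than in naive cord, against 13.6% of all tested genes. Cspg4 and Bcas1 were lower without overlap, with log2 fold changes of −0.22 and −0.41 (edgeR adjusted p = 0.441 and 0.0792). Pdgfra, Gpr17 and Vcan were highest in vehicle replicate 1, at 35.6, 28.9 and 60.2 CPM, above naive values of at most 25.2, 16.2 and 29.4 CPM. Cspg4, Ptprz1, Lhfpl3, Neu4 and Bcas1 were highest in other libraries. The part of any of these cells in the values of the members was not tested.

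**Figure D4:**
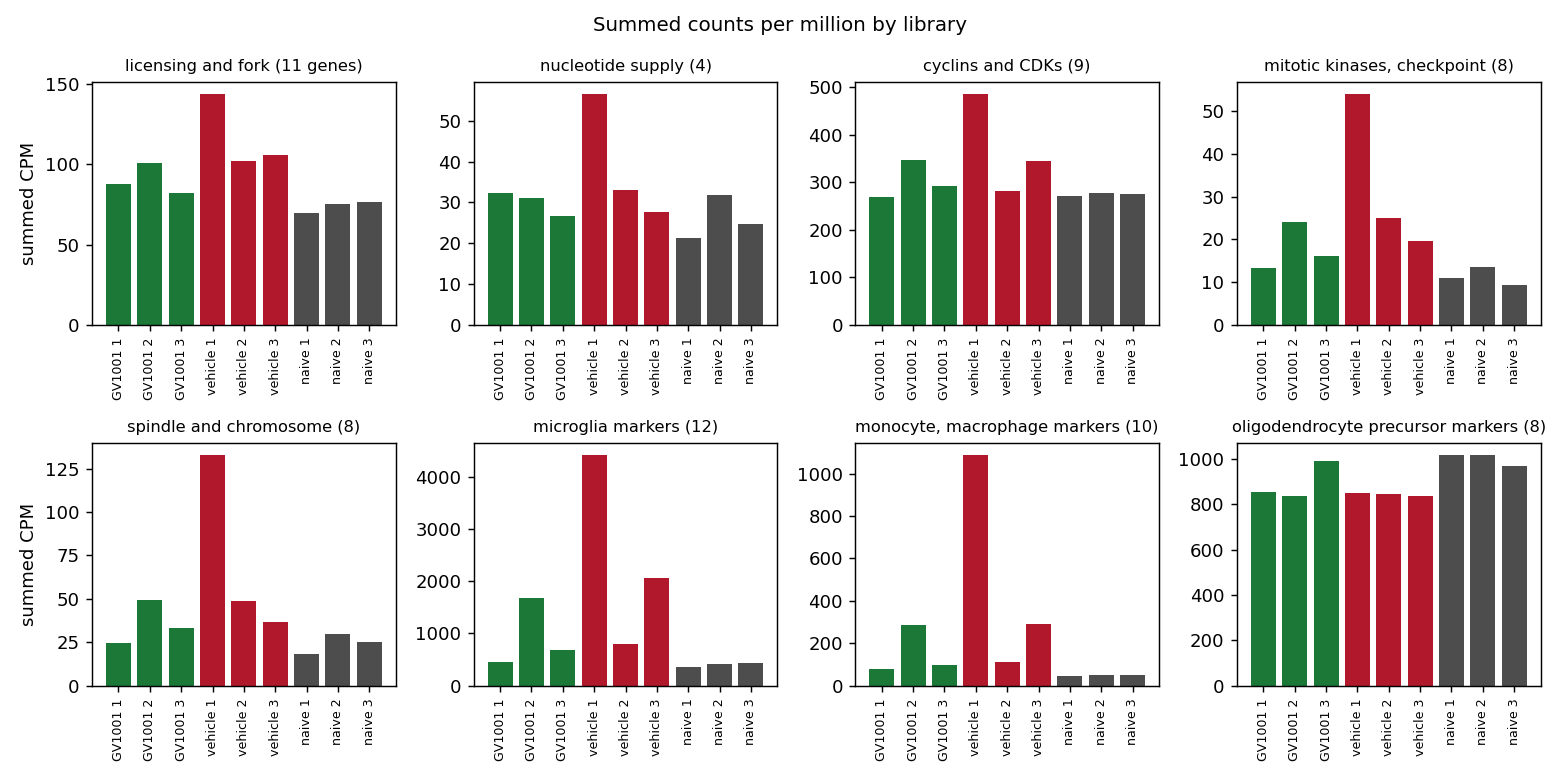
Summed CPM of the genes of each role and of 3 marker lists (bars, 1 per library, axes starting at 0) in GV1001, vehicle and naive cord. Vehicle replicate 1 is highest for all 5 roles and for the microglial (4430 CPM) and monocyte markers (1090 CPM). The summed oligodendrocyte precursor markers, mostly Bcas1 and Ptprz1, lie between 837 and 1020 CPM in all libraries.

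Opposite-strand neighbours meet the 3′ end of 5 members in GENCODE M21, Mcm7 with Cops6, Ccnd1 with LTO1, Ccne2 with Ints8, Ccna2 with Exosc9 and Cdc20 with Elovl1. If counting ignored strand, reads of these pairs could not be told apart. Ccna2 had 114 counts over the 9 libraries and Exosc9 912. Pseudogene rows held few reads, with 5 counts for Ccnb1-ps beside 55 for Ccnb1 and 0 for Tyms-ps.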

How the data were processed

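RNA of 9 spinal cord samples of wild-type mice was sequenced from transcript ends with a QuantSeq 3′ mRNA kit, per the labels' protocols. Extraction was by TRIzol or a Maxwell kit, not stated per sample. The deposited values are raw counts per gene symbol, made by the authors with FastQC, STAR, HTSeq and GRCm39, per the submitters' processing notes. Tool versions, strand setting, annotation release and use of molecular identifiers are not given in the sources used here. The 9 single-library files matched the table.

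CPM were counts divided by library totals. After filterByExpr by group (minimum count 10) and TMM normalisation, 15351 genes were tested with edgeR 4.0.16 (quasi-likelihood F test, R 4.3.3) in 1 fit of all 9 libraries with a coefficient per group. Adjustment was by Benjamini-Hochberg over all tested genes, with a threshold of 0.05, and SE were derived from the F statistic. DESeq2 1.42.0 (without that filter) and limma-voom (limma 3.58.1) were alternatives, beside other normalisations, filters, thresholds, the replicate number as a block and each library left out. The procedure was tested on data simulated at the spread of these libraries and at a low spread. A pass was required only at the low spread, and recovery at the spread of these libraries is not reported here. Groups came from the sample titles. No label ties equal replicate numbers of different groups to one another.

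Members too low to test have summed counts with exact Poisson intervals at 95%. Members and lists were chosen with earlier results of these data known, so no p was adjusted over a list and no list was tested as a set. Values in every library are given for the 3 members of each role with the highest mean CPM and the 4 with the largest absolute fold change in each comparison, and for some others. Of each pathway list the 2 genes with the smallest p per comparison are named where none passed, except that 1 is not reported here. Counts of members without overlap when vehicle replicate 1 is left out were added after seeing the data. Transcript ends were compared within 500 bases in GENCODE M21. Plots used matplotlib 3.10.9 (Python 3.11.15).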

Additional observations from a re-analysis of the deposited data

How the results depend on the processing

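In vehicle against naive, the 3 genes called became 1104 with DESeq2, 0 with limma-voom, 20 with library totals, 543 without the filter, 0 with a replicate block and 862 at an adjusted p of 0.1. Leaving out 1 library gave 0 to 1652, the highest without vehicle replicate 2. The 0 members called became 5 with DESeq2, 2 without the filter (Bub1b and Cdk1) and 3 at an adjusted p of 0.1 (Bub1b, Ccna2 and Cdk1). Leaving out 1 library gave 0 to 8 members, and the 8, without vehicle replicate 2, were Bub1b, Ccnd1, Cdk1, Cdk2, Cenpa, Mcm3, Tk1 and Top2a. The cause was not tested. The members' median ran from 0.53 to 1.47 when 1 library was left out, lowest without vehicle replicate 1. In GV1001 against vehicle, 0 genes became 13 with DESeq2 and 0 to 8 when 1 library was left out, and positive members, 3 of 34, ran from 1 to 11, the highest without vehicle replicate 1. In GV1001 against naive, 0 genes became 45 with DESeq2, 5 with only the 6 libraries of the comparison, and 1 each with the older form of the fit, library totals, no filter, the stricter filter and an adjusted p of 0.1, and 0 to 3 when 1 library was left out. No member was called in the last 2 comparisons under any of these alternatives. Of single members' fold changes, 5, 16 and 18 of 306 changed sign when 1 library was left out, in vehicle against naive, GV1001 against vehicle and GV1001 against naive, none of them called. With that block the members' medians were 1.14, −0.53 and 0.41 and no member was called. Of 9 pairs of same-numbered libraries, 2 correlated above 0.1 in their deviations from the group means. With 3 libraries a group and levels of a few CPM, counts of most members were low, which limits what could be detected.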
